A study of Mus musculus with 8 samples.

Results

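The genes described here are 10 that are widely used to recognise endothelial cells, the cells that line blood vessels: Kdr, Flt1, Tek, Pecam1, Cdh5, Vwf, Emcn, Aqp1, Fabp4 and Tm4sf1. They were taken as a named list, and every probe set of the array annotated to 1 of these symbols alone, or to a synonym, was used. This gave 17 probe sets of 22626 without the controls, and 10 genes of 12393 named genes. Messenger RNA levels were measured on Affymetrix Mouse430A arrays in cells sorted as CD45+/Sca1+, that is, cells with the leukocyte surface protein CD45 (Ptprc) and the stem and progenitor antigen Sca1. The study had 8 arrays in 4 groups of 2, and each array held RNA of 1 sample.

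All groups came from C57BL/6 mice of 6 to 8 weeks and all carried the same CD45+/Sca1+ gate. The first group was bone marrow. The second was skeletal muscle with neither injury nor transplant named, called muscle below. The third was muscle after an injection of Cardiotoxin, a snake venom peptide that destroys muscle fibres and leaves the tissue to regenerate (injured muscle). The fourth was muscle injured with Cardiotoxin in mice given bone marrow by transplantation (transplanted injured muscle). The sources used here do not state the time from injury to sorting, the donor or host origin of the sorted cells or the number of animals behind a sample. The labels do not say that the 2 arrays of a group came from separate animals, and the p-values rest on how far arrays differ within a group, which may be technical variation alone. The comparisons ask how far cells of 1 surface phenotype differ with the tissue they were taken from, with injury and with transplantation.

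Values are intensities on a linear scale, set by the submitters so that arrays share 1 trimmed mean. Levels of a gene are compared within a probe set, not between probe sets, since each probe set has its own response. Sums over a list add probe sets of unlike response, so the brightest weigh most, and the sums are compared between groups only. Differences are log2 fold changes of (intensity + 4) with their SE, tested with limma over all probe sets that passed a filter, and a call means a Benjamini-Hochberg adjusted p under 0.05. The filter kept probe sets with at least 2 of 8 arrays at or above an intensity of 38.4, and it kept 16285 probe sets and 9505 genes. All 10 genes passed it, with 15 of their 17 probe sets. Where both arrays of the lower group lay under 38.4, a called difference is given with a bound, the higher group against that value ("at least"), and the fitted log2 difference beside it is no measure of its size.

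Endothelial cells sense vascular endothelial growth factor (VEGF) through the receptor tyrosine kinases Kdr and Flt1 and sense angiopoietins through Tek, and these signals govern vessel sprouting, survival and quiescence. They are joined to each other by the adhesion proteins Cdh5 and Pecam1, release the clotting glycoprotein Vwf, carry the surface sialomucin Emcn, and in capillaries of muscle pass water through Aqp1 and take up fatty acids with the help of carriers such as Fabp4. Several of these genes are also active in cells of the blood: Pecam1 and Tek in blood stem cells and leukocytes, Vwf in platelets, Aqp1 in red cells, and Fabp4 in macrophages as well as fat cells.

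Like most of the 10 genes, the 3 receptor genes had their highest mean in muscle. The 250 bases before each of their start sites are shown, from RefSeq on GRCm38.p6, 5′ to 3′ on the gene's strand. The table used here held a promoter for 6 of the 10 genes (Kdr, Flt1, Tek, Emcn, Aqp1 and Tm4sf1). Capitals mark GGAAG and the longer motif CCGGAA, short forms of the site bound by ETS transcription factors; on the opposite strand the first reads CTTCC and the second of these motifs reads TTCCGG.
Kdr, chr5:75978456-75978705, minus strand: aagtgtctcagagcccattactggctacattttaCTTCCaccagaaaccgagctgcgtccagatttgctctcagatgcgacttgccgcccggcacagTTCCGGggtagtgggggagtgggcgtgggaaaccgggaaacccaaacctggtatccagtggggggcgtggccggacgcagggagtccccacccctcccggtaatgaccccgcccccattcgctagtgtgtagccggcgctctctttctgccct
Flt1, chr5:147726012-147726261, minus strand: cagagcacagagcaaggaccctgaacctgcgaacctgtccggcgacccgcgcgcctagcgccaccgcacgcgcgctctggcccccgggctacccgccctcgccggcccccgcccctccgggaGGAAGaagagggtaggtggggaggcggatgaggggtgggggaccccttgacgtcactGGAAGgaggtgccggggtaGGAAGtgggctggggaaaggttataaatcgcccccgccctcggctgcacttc
Tek, chr4:94739039-94739288, plus strand: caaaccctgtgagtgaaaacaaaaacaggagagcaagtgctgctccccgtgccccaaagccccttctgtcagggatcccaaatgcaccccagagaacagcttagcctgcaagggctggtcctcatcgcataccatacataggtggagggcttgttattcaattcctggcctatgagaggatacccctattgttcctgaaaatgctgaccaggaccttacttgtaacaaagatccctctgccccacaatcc

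GGAAG stood on at least 1 strand in 5 of the 6 promoters, and the Tek window held none. The same search found it in 64.1% of all 32851 promoters of that length. The longer CCGGAA was in the Kdr window alone among the 6, and in 12.0% of all promoters. The Flt1 window also held TGACGTCA, the cyclic AMP response element, from 81 to 74 bases before the start (1.55% of all promoters), and TATAAA from 31 to 26 bases before it (12.4% of all promoters). AGATAA, which transcription factors of the GATA family bind, was in 0 of the 6 and in 9.99% of all promoters. GGGCGG, the GC box, was in 3 of the 6 (Kdr, Flt1 and Aqp1) and in 32.7% of all promoters. These are matches of letters in a window and say nothing of binding.

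The arrays of a group correlated across probe sets with r of 0.948 in bone marrow, 0.895 in muscle, 0.947 in injured muscle and 0.950 in transplanted injured muscle. The state of the RNA moved with the groups. The ratio of the 3′ to the 5′ control probe set of Gapdh was 10.7 to 46.9 on the 4 arrays of bone marrow and muscle and 0.808 to 0.882 on the 4 arrays of the injured groups. That of beta-actin was 5.68 to 19.0 and 1.18 to 1.23. The highest ratios of both were those of muscle 1. Ptprc, which encodes CD45, had intensities of 4924 to 6996 on the 8 arrays and was called in none of the 6 comparisons. Ly6a, which encodes Sca1, was not analysed here.

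Muscle stood apart in 9 of the 10 genes. Kdr, Flt1, Tek, Cdh5, Vwf, Emcn, Aqp1, Fabp4 and Tm4sf1 each had their highest mean in muscle, and on both muscle arrays each exceeded all 6 other arrays. Pecam1 did not follow: its highest mean was in bone marrow. Summed over the 10 genes, the intensity was 12209 to 16524 in muscle, 718 to 777 in bone marrow, 1631 to 1661 in injured muscle and 978 to 1052 in transplanted injured muscle. The largest part of the sum was Fabp4 in muscle, with a mean of 5311, and Kdr in bone marrow, with a mean of 357. Since each sample is RNA of many cells, a smaller share of cells with these transcripts and less of the transcript per cell cannot be told apart here. The RNA ratios given above differed between the uninjured and the injured groups, and their part in the differences was not tested.

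**Figure D1:**
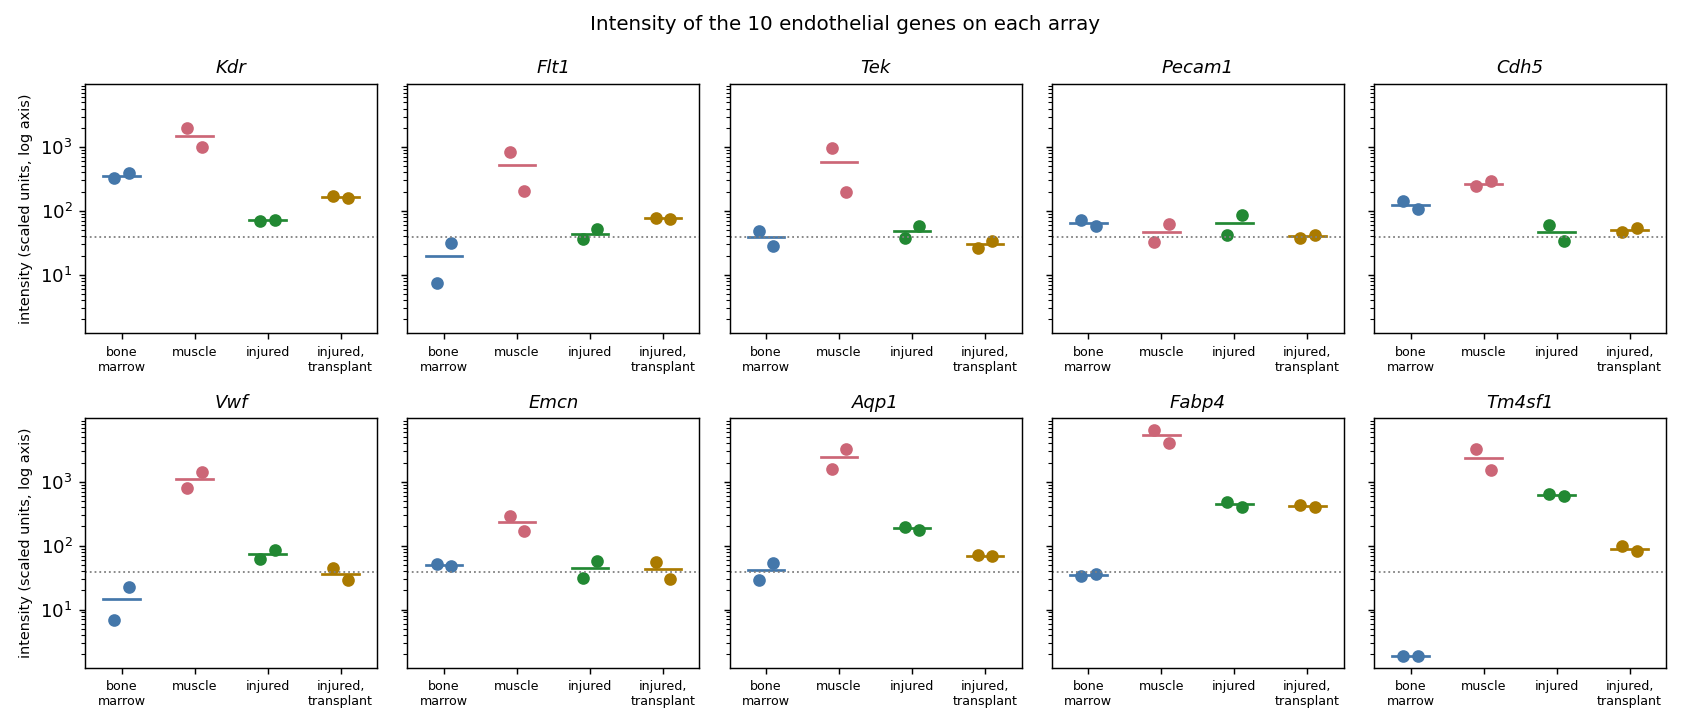
Intensity on a log axis of the brightest probe set of each of the 10 genes on the 8 arrays. Points are arrays, short lines are means of 2 arrays, and the dotted line is the filter value of 38.4; in 9 panels the 2 muscle arrays lie above the other 6, and in the Pecam1 panel muscle overlaps every other group.

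Kdr, the main signalling receptor for VEGF, was measured by 1 probe set (1449379_at). Its intensity was 325 and 389 in bone marrow, 2011 and 996 in muscle, 70.2 and 72.0 in injured muscle, and 171 and 161 in transplanted injured muscle. The 4 groups did not overlap, in the order muscle, bone marrow, transplanted injured muscle, injured muscle. Its mean in bone marrow was 357 ± 44.8 (SD, n = 2), well above the filter value, and in muscle 1503 ± 718 (SD, n = 2). It was higher in muscle than in bone marrow by 1.98 ± 0.38 (SE) on the log2 scale (limma adjusted p = 0.0216). In injured muscle it fell to 4.73% of the muscle mean, a change of -4.24 ± 0.38 (limma adjusted p = 0.000921). In transplanted injured muscle it was at 11.1% of the muscle mean, with a change of -3.06 ± 0.38 (limma adjusted p = 0.00146). Injured muscle was also below bone marrow, by -2.26 ± 0.38 (limma adjusted p = 0.00393). The differences of transplanted injured muscle from its neighbours in that order, 1.18 from injured muscle and -1.08 from bone marrow, were not called (limma adjusted p = 0.345 and 0.0635).

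Flt1, a VEGF receptor that binds the ligand tightly and signals weakly, had 3 probe sets. The one with the highest mean (1451756_at) read 7.46 and 31.6 in bone marrow, 827 and 207 in muscle, 36.3 and 51.7 in injured muscle, and 77.7 and 75.2 in transplanted injured muscle. Muscle was clear of the others, although its 2 arrays differed 3.99-fold. The difference between muscle and bone marrow was 4.37 ± 0.73 (limma adjusted p = 0.0108), at least 9.88-fold. Flt1 fell in injured muscle by -3.14 ± 0.73 (limma adjusted p = 0.0176) and in transplanted injured muscle by -2.38 ± 0.73 (limma adjusted p = 0.0386), to 8.51% and 14.8% of the muscle mean. A second probe set (1419300_at) gave 33.6 and 25.1 in bone marrow, 608 and 261 in muscle, 28.8 and 43.2 in injured muscle, and 33.0 and 31.4 in transplanted injured muscle. Its 3 differences from or to muscle were called too, at 3.60 ± 0.48, -3.35 ± 0.48 and -3.47 ± 0.48 (limma adjusted p = 0.00388, 0.00347 and 0.00206), the first and the last at least 9.49-fold. The third (1454037_a_at) was dim, at 85.0 and 77.6 in muscle and 22.3 to 45.0 elsewhere, and its differences were not called (limma adjusted p = 0.0501, 0.0592 and 0.104).

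Tek, the angiopoietin receptor, read 48.3 and 28.6 in bone marrow, 953 and 198 in muscle, 37.8 and 58.3 in injured muscle, and 26.0 and 33.6 in transplanted injured muscle. Only in muscle were both arrays well over the filter value, and they differed 4.81-fold, the widest gap between muscle arrays among the 10 genes. Tek was higher in muscle than in bone marrow by 3.41 ± 0.69 (limma adjusted p = 0.0255). It was lower in injured muscle by -3.11 ± 0.69 (limma adjusted p = 0.0152) and in transplanted injured muscle by -3.71 ± 0.69 (limma adjusted p = 0.00607), the last at least 10.4-fold. The other 3 groups overlapped in part and no difference among them was called (limma adjusted p = 0.766 to 0.993).

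Cdh5, the cadherin of endothelial junctions (VE-cadherin), read 143 and 107 in bone marrow, 247 and 289 in muscle, 60.1 and 33.7 in injured muscle, and 46.2 and 54.5 in transplanted injured muscle (1433956_at). Muscle lay above bone marrow and bone marrow above both injured groups, with no overlap. The difference between muscle and bone marrow, 1.09 ± 0.39, was not called (limma adjusted p = 0.173; 95% interval 0.19 to 1.98 without adjustment). Against muscle, Cdh5 fell by -2.46 ± 0.39 in injured muscle and by -2.32 ± 0.39 in transplanted injured muscle (limma adjusted p = 0.00469 and 0.00413). It was below bone marrow too, by -1.38 ± 0.39 and -1.24 ± 0.39 (limma adjusted p = 0.0297 and 0.0418). A second Cdh5 probe set stayed between 1.46 and 36.3 on all 8 arrays and did not pass the filter.

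Pecam1, an adhesion molecule of endothelial cells, platelets and leukocytes, read 70.7 and 59.0 in bone marrow, 32.5 and 61.2 in muscle, 42.5 and 86.7 in injured muscle, and 38.0 and 42.5 in transplanted injured muscle. Its muscle values overlapped those of every other group, and it was called in none of the 6 comparisons. The muscle to bone marrow difference was -0.49 ± 0.48 (limma adjusted p = 0.642), with an unadjusted 95% interval of -1.60 to 0.61. It had 1 probe set (1421287_a_at), with values between 32.5 and 86.7 on the 8 arrays.

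Vwf, the glycoprotein that tethers platelets to a damaged vessel wall, read 6.91 and 22.1 in bone marrow, 807 and 1408 in muscle, 62.1 and 85.3 in injured muscle, and 43.9 and 29.3 in transplanted injured muscle. No 2 groups overlapped. It was higher in muscle than in bone marrow by 5.99 ± 0.52 (limma adjusted p = 0.000617), at least 25.2-fold. It fell by -3.80 ± 0.52 in injured muscle (limma adjusted p = 0.00294) and by -4.74 ± 0.52 in transplanted injured muscle (limma adjusted p = 0.000963). Injured muscle was still above bone marrow, by 2.19 ± 0.52 (limma adjusted p = 0.0155), at least 1.81-fold. The difference of transplanted injured muscle from bone marrow, 1.24 ± 0.52, was not called (limma adjusted p = 0.102). Platelets and megakaryocytes also carry Vwf. The sum of 8 of their genes was 678 to 1300 in bone marrow, 5932 to 8235 in muscle, 8292 to 9974 in injured muscle and 8359 to 9839 in transplanted injured muscle. These sums were higher in muscle than in bone marrow, as Vwf was, and those of the injured groups were no lower than those of muscle. The median log2 difference of the 8 genes was 0.26 for muscle against bone marrow. It was -0.51 for injured and -0.82 for transplanted injured muscle against muscle. Over all genes these medians were -0.06, -0.25 and -0.31. Pf4, a platelet chemokine, made up most of the sum in muscle, at 295 and 657 in bone marrow and 5447 and 7520 in muscle. It was the 1 of 8 called higher in muscle than in bone marrow, where 5.85% of all genes tested were. Against muscle, 0 of 8 were called lower in either injured group, where 15.1% and 20.8% of all genes tested were. The part of platelet RNA in the Vwf values was not tested.

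Emcn, a sialomucin of capillaries and veins, read 51.9 and 48.1 in bone marrow, 293 and 170.3 in muscle, 30.9 and 57.5 in injured muscle, and 55.5 and 30.1 in transplanted injured muscle. Muscle was clear of the rest, and the other 3 groups overlapped. The muscle to bone marrow difference was 2.08 ± 0.48 (limma adjusted p = 0.0434), just past the threshold. That call held in 5 of 19 alternative settings, with an adjusted p of 0.0164 to 0.254, and was lost with the replicate number as a block (limma adjusted p = 0.0549). Emcn fell by -2.30 ± 0.48 in injured muscle and by -2.34 ± 0.48 in transplanted injured muscle (limma adjusted p = 0.0122 and 0.00903).

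Aqp1, the water channel of capillary endothelium and red cells, read 29.4 and 53.7 in bone marrow, 1589 and 3279 in muscle, 199 and 178 in injured muscle, and 70.2 and 68.4 in transplanted injured muscle. The groups did not overlap, and both injured groups stood between bone marrow and muscle. It was higher in muscle than in bone marrow by 5.70 ± 0.44 (limma adjusted p = 0.000330). It fell by -3.57 ± 0.44 in injured muscle (limma adjusted p = 0.00209) and by -4.96 ± 0.44 in transplanted injured muscle (limma adjusted p = 0.000506). Injured muscle exceeded bone marrow by 2.13 ± 0.44 (limma adjusted p = 0.00889). For transplanted injured muscle the difference from bone marrow, 0.74 ± 0.44, was not called (limma adjusted p = 0.229). Of the 5 erythroid genes tested, 0 were called higher in muscle than in bone marrow, where 5.85% of all genes tested were. Against muscle, 0 and 1 were called lower in injured and transplanted injured muscle, where 15.1% and 20.8% of all genes tested were. The median log2 differences of the 5 were 0.29, -0.75 and -1.79, beside -0.06, -0.25 and -0.31 over all genes. The erythroid sum was 259 to 418 in bone marrow, 334 to 645 in muscle, 217 to 232 in injured muscle and 128 to 161 in transplanted injured muscle. The part of red cell RNA in the Aqp1 values was not tested.

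Fabp4, the fatty acid carrier, had 4 probe sets. The brightest (1417023_a_at) read 33.8 and 35.7 in bone marrow, 6521 and 4101 in muscle, 486 and 405 in injured muscle, and 425 and 400.4 in transplanted injured muscle. Bone marrow was under the filter value, both injured groups lay well above it, overlapping each other, and muscle was far higher. Muscle exceeded bone marrow by 7.06 ± 0.32 (limma adjusted p = 4.86e-05), at least 122-fold. The falls from muscle were alike in size, -3.53 ± 0.32 in injured muscle and -3.63 ± 0.32 in transplanted injured muscle (limma adjusted p = 0.000964 and 0.000507). What remained, 8.39% and 7.78% of the muscle mean, was above bone marrow by 3.53 ± 0.32 and 3.43 ± 0.32 (limma adjusted p = 0.000291 and 0.000312), at least 10.6-fold and 9.83-fold. A second probe set (1451263_a_at), at 1950.4 and 2181 in muscle, gave a smaller remainder of 78.3 and 98.8 in injured muscle and 57.6 and 113 in transplanted injured muscle against 42.9 and 18.2 in bone marrow. Its differences from bone marrow were 1.51 ± 0.47 and 1.40 ± 0.47 (limma adjusted p = 0.0430 and 0.0539). With all Fabp4 probe sets averaged, transplanted injured muscle exceeded bone marrow by 1.02, which was not called (limma adjusted p = 0.0648). The dim 1425809_at and 1424155_at were also highest in muscle, at 129.9 and 52.3 and at 74.6 and 38.8. Neither was called in muscle against bone marrow (limma adjusted p = 0.167 and 0.372) or in injured muscle against muscle (limma adjusted p = 0.111 and 0.0768). In transplanted injured muscle against muscle 1424155_at was called lower (limma adjusted p = 0.0398), at least 1.37-fold, and 1425809_at was not called (limma adjusted p = 0.0853). The probe set 1424155_at, under the filter value in the other 3 groups, was lower than bone marrow by -0.60 in injured and -0.92 in transplanted injured muscle, neither of them called (limma adjusted p = 0.514 and 0.307).

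Tm4sf1, a membrane protein abundant on endothelial cells, was close to 0 in bone marrow. The probe set 1450958_at read 1.89 and 1.84 in bone marrow, 3243 and 1500.1 in muscle, 636 and 603 in injured muscle, and 97.9 and 82.3 in transplanted injured muscle. The 4 groups were apart from each other. Muscle exceeded bone marrow by 8.56 ± 0.41 (limma adjusted p = 5.50e-05), at least 52.1-fold. Tm4sf1 kept 26.1% of its muscle mean in injured muscle, a change of -1.83 ± 0.41 (limma adjusted p = 0.0159), and 3.80% in transplanted injured muscle, a change of -4.56 ± 0.41 (limma adjusted p = 0.000523). Both injured groups were above bone marrow, by 6.73 ± 0.41 and 4.0 ± 0.41 (limma adjusted p = 5.90e-05 and 0.000449), at least 14.7-fold and 2.21-fold. A second probe set, 1448069_at, stayed at 15.6 or less on every array and was not tested.

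**Figure D2:**
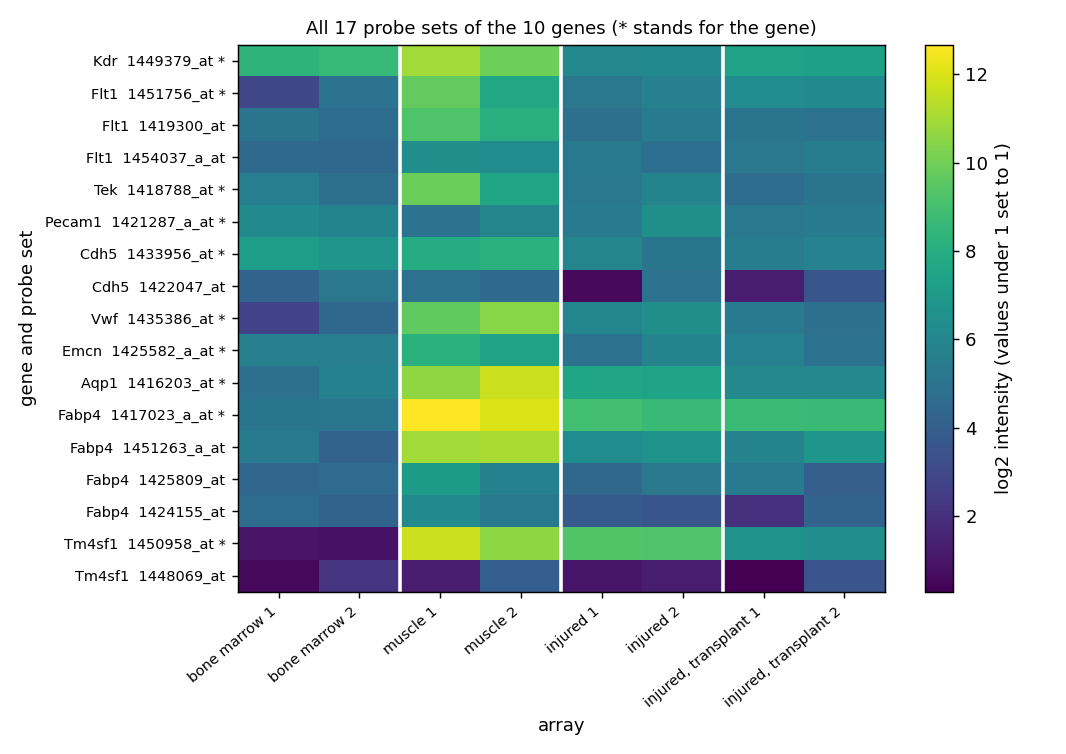
Heat map of log2 intensity (values under 1 set to 1) of all 17 probe sets of the 10 genes, with arrays as columns in 4 groups of 2 and an asterisk on the probe set that stands for its gene. The 2 muscle columns are the brightest in most rows; the second probe sets of Cdh5 and Tm4sf1 are dim throughout, and the Pecam1 row shows no group apart.

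Counted over the genes, 8 of 10 were called higher in muscle than in bone marrow, where 5.85% of all genes tested were called higher, and 0 of 10 lower, where 1.40% were. The median difference of the 10 was 3.89, or 3.36 with the 4 genes that have a bound set at it, beside -0.06 over all genes. The 2 without a call were Pecam1 and Cdh5. Emcn, counted among the 8, lost its call with the replicate number as a block. In 9 of 10 genes both muscle arrays lay above both bone marrow arrays, as in 23.7% of all genes tested. Vwf, Aqp1, Fabp4 and Tm4sf1 kept the call when any 1 array was left out. Kdr and Tek lost it when either bone marrow array or any 1 of the 4 arrays of the injured groups was left out (limma adjusted p = 0.0585 to 0.124 and 0.0575 to 0.154), Emcn when any array but muscle 2 was left out (0.0657 to 0.173), and Flt1 without bone marrow 1 (0.0775). The count of genes higher was 4 without bone marrow 1 and 5 without bone marrow 2 or any 1 array of the injured groups, and it was 4 in a fit of the 4 arrays compared alone.

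In injured muscle 9 of 10 genes were called lower than in muscle, where 15.1% of all genes tested were called lower, and 0 of 10 higher, where 8.77% were. The median difference was -3.13, beside -0.25 over all genes. The 9 genes were those whose arrays did not overlap, as in 40.1% of all genes tested. What remained in injured muscle was 4.73% of the muscle mean for Kdr, 6.66% for Vwf, 7.75% for Aqp1 and 8.35% for Tek, and it was 17.5% for Cdh5, 19.1% for Emcn and 26.1% for Tm4sf1. Without injured muscle 1 the count was 5, since Flt1, Tek, Emcn and Tm4sf1 lost the call. Without injured muscle 2, Flt1, Tek and Tm4sf1 lost it, and without muscle 1, Flt1. The limma adjusted p of these lost calls was 0.0531 to 0.107.

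In transplanted injured muscle the same 9 genes were called lower than in muscle, where 20.8% of all genes tested were, and 0 of 10 higher, where 10.5% were. The median difference was -3.35, beside -0.31 over all genes. The arrays did not overlap in these 9, as in 42.6% of all genes tested. This comparison shares the muscle arrays with the one before it. The remainder was 2.85% of the muscle mean for Aqp1, 3.30% for Vwf, 3.80% for Tm4sf1 and 5.17% for Tek, and it was 18.5% for Emcn and 18.8% for Cdh5. Flt1 lost its call without muscle 1 or any 1 array of the injured groups (limma adjusted p = 0.0639 to 0.155) and Emcn without transplanted injured muscle 2 (0.0670).

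**Figure D3:**
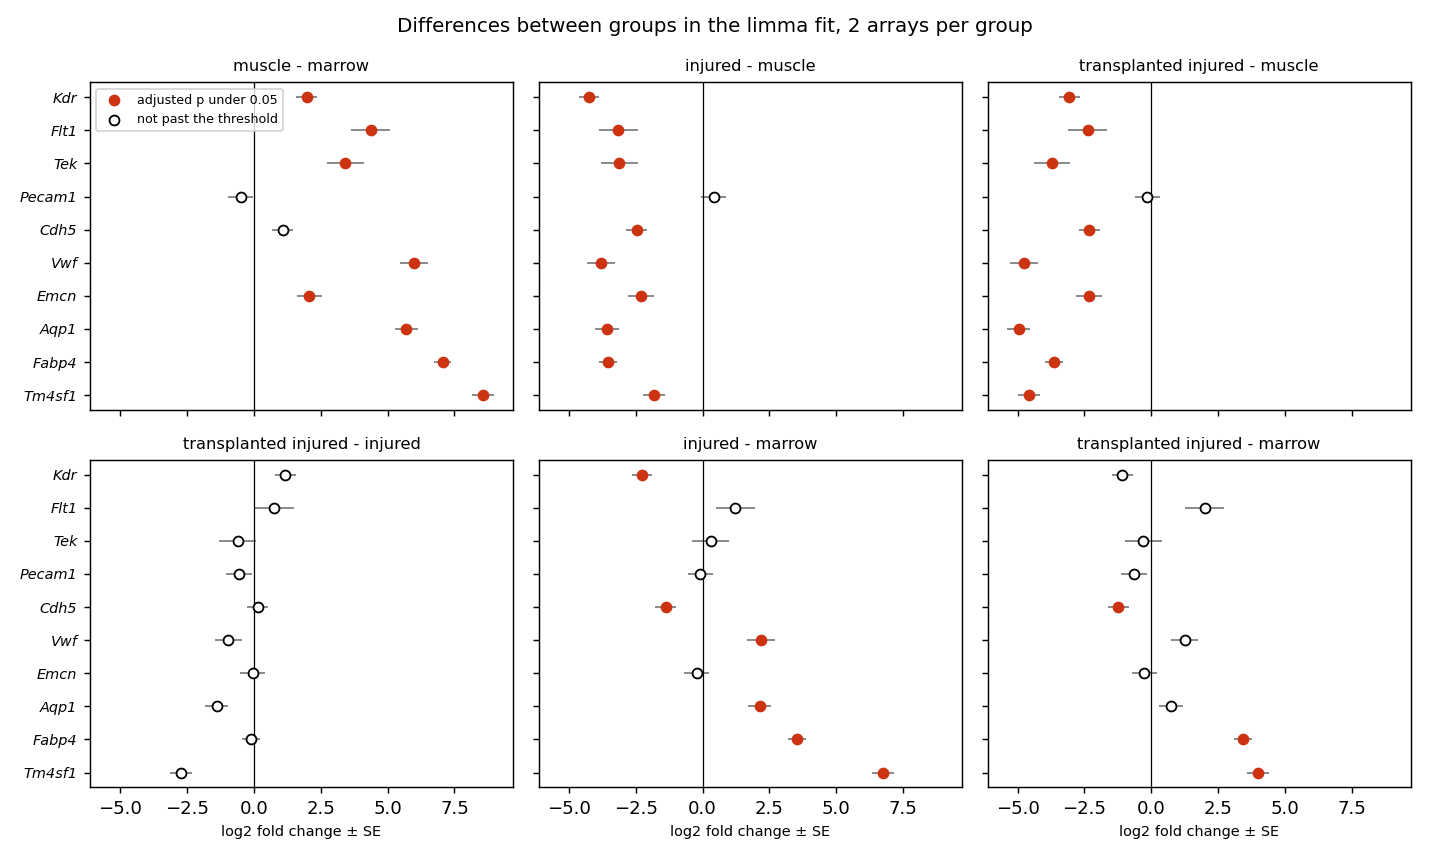
Log2 fold change of (intensity + 4) with its SE for the 10 genes in the 6 comparisons of the limma fit, 2 arrays per group. Filled points passed an adjusted p of 0.05: 8 are filled to the right for muscle against bone marrow, 9 to the left in each injured group against muscle, and none for transplanted injured against injured muscle.

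The injured groups were also compared with each other. Of the 10 genes, 0 were called higher and 0 lower by limma in transplanted injured muscle, where 0.0421% and 0.274% of all genes tested were called. At an unadjusted p under 0.05 there were 3. Tm4sf1 was lower by -2.73 ± 0.41 (limma adjusted p = 0.0576; unadjusted 95% interval -3.68 to -1.79), and it passed the threshold without muscle 1 or without muscle 2 (limma adjusted p = 0.00463 and 0.00549), arrays outside this comparison that share in the estimate of the spread. Aqp1 was at -1.39 ± 0.44 (limma adjusted p = 0.335; interval -2.40 to -0.38) and Kdr at 1.18 ± 0.38 (limma adjusted p = 0.345; interval 0.30 to 2.07). With array weights, or in a fit of these 4 arrays alone, all 3 passed the threshold, and Tm4sf1 also with a pseudocount of 17. The arrays did not overlap in 2 genes in the direction of transplanted injured muscle (Kdr and Flt1) and in 4 in the other (Tek, Vwf, Aqp1 and Tm4sf1), as in 25.3% and 26.5% of all genes tested. For Fabp4 the difference was -0.10 ± 0.32 with an interval of -0.85 to 0.64, for Cdh5 0.14 ± 0.39 with an interval of -0.76 to 1.03, and for Emcn -0.04 ± 0.48 with an interval of -1.14 to 1.06.

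Set against bone marrow, which shares the injured arrays with the comparisons above, injured muscle had 4 of 10 genes called higher (Vwf, Aqp1, Fabp4 and Tm4sf1) and 2 lower (Kdr and Cdh5). Of all genes tested, 12.6% were called higher and 17.2% lower in that comparison. Transplanted injured muscle had 2 of 10 called higher (Fabp4 and Tm4sf1) and 1 lower (Cdh5), where 12.0% and 19.5% of all genes were. The arrays did not overlap in 5 genes higher and 2 lower in injured muscle, as in 29.1% and 44.1% of all genes, and in 5 higher and 3 lower in transplanted injured muscle, as in 27.9% and 44.8%. The median differences of the 10 genes were 0.77 (0.23 with the genes that have a bound set at it) and 0.24, beside -0.27 and -0.32 over all genes. The Cdh5 calls were lost without any 1 array of bone marrow or the injured groups (limma adjusted p = 0.05003 to 0.187 in injured and 0.0511 to 0.182 in transplanted injured muscle). Those of Vwf and Aqp1 were lost without bone marrow 1, injured muscle 1 or injured muscle 2 (limma adjusted p = 0.0614 to 0.0980 and 0.0530 to 0.0670), which left 2 genes higher in injured muscle. In transplanted injured muscle Flt1 was called higher without bone marrow 2 or either muscle array (limma adjusted p = 0.0183 to 0.0488) and Vwf without bone marrow 2 (0.0457), which raised the count from 2 to as many as 4. Kdr was called lower there without either muscle array (limma adjusted p = 0.00841 and 0.00928), and the count lower was 0 to 2.

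Genes of the same pathways were read from 8 further endothelial lists with 102 genes, of which 96 had a probe set and 87 were tested. In muscle against bone marrow 36 of 87 were called higher and 0 lower, where 5.85% and 1.40% of all genes were; the median was 2.02, or 1.25 with genes at their bound, beside -0.06 over all genes. In injured muscle against muscle 2 were called higher and 40 lower, where 8.77% and 15.1% of all genes were, with a median of -1.43 (-1.17 with bounds) beside -0.25. In transplanted injured muscle 3 were called higher than in muscle and 51 lower, where 10.5% and 20.8% of all genes were, with a median of -2.09 (-1.43 with bounds) beside -0.31. Between the injured groups limma called 0 of 87 in either direction. Against bone marrow 21 were called higher and 12 lower in injured muscle, where 12.6% and 17.2% of all genes were, and 18 higher and 13 lower in transplanted injured muscle, where 12.0% and 19.5% were. The shares of all genes called apply to each list that follows. The lists were put together with results of these data known, so their direction is no independent evidence.

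Among 8 genes of VEGF ligands and coreceptors, Nrp1 and Nrp2, the neuropilin coreceptors, were called higher in muscle than in bone marrow, by 2.47 ± 0.24 and 3.58 ± 0.34 (limma adjusted p = 0.000896 and 0.000826). Both fell in injured muscle, by -1.02 ± 0.24 and -1.97 ± 0.34 (limma adjusted p = 0.0175 and 0.00600), and were still above bone marrow there, by 1.45 ± 0.24 and 1.61 ± 0.34 (limma adjusted p = 0.00322 and 0.00922). Nrp1 read 429.7 and 447 in bone marrow, 2509.5 and 2393 in muscle, 1190.4 and 1223 in injured muscle, and 1199.5 and 1016 in transplanted injured muscle. Both injured groups lay between bone marrow and muscle. Flt4, the receptor for VEGF-C, fell by -3.68 ± 0.60 in injured muscle and by -3.30 ± 0.60 in transplanted injured muscle (limma adjusted p = 0.00534 and 0.00573); it was under the filter value in both, so each fall is at least 4.05-fold. Vegfa was higher in injured muscle than in bone marrow, by 1.47 ± 0.34 (limma adjusted p = 0.0137).

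In the angiopoietin list 4 of 6 genes were tested. Ptprb, the endothelial phosphatase that restrains Tek, read 24.6 and 40.3 in bone marrow, 1210.1 and 734 in muscle, 45.2 and 65.8 in injured muscle, and 34.6 and 56.2 in transplanted injured muscle. It had differences of 4.73 ± 0.44 for muscle against bone marrow and -4.01 ± 0.44 and -4.29 ± 0.44 for the injured groups against muscle (limma adjusted p = 0.000826, 0.00157 and 0.000799), with the same signs as those of Tek. Angpt2, the ligand that opposes Tek signalling in many settings, took another course. It read 1.54 and 1.61 in bone marrow, 81.2 and 101 in muscle, 36.9 and 20.6 in injured muscle, and 202 and 244 in transplanted injured muscle. It fell in injured muscle by -1.58 ± 0.43 (limma adjusted p = 0.0312), at least 2.23-fold, while the difference of transplanted injured muscle from muscle, 1.25 ± 0.43, was not called (limma adjusted p = 0.0563), nor was that between the injured groups, 2.83 (limma adjusted p = 0.0576).

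Of 17 junction and surface genes, 7 were higher in muscle than in bone marrow and 0 lower. They included Podxl (4.63 ± 0.47), Cldn5, a tight junction protein (3.36 ± 0.45), and Mcam (4.07 ± 0.65), with limma adjusted p = 0.00109, 0.00403 and 0.00887. Podxl and Mcam were under the filter value in bone marrow, so their differences are at least 17.4-fold and 3.34-fold. In injured muscle 8 of 17 fell and 0 rose, and in transplanted injured muscle 9 fell and 1 rose. Cd34, a sialomucin of endothelial and blood progenitor cells, read 841 and 533 in bone marrow, 420.4 and 345 in muscle, 100.5 and 128 in injured muscle, and 42.3 and 45.6 in transplanted injured muscle. Its mean was highest in bone marrow, although the difference of muscle from bone marrow was not called (limma adjusted p = 0.261). It was lower in injured muscle than in bone marrow by -2.52 ± 0.35 (limma adjusted p = 0.00179).

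Of 19 transcription factors tested, 4 were higher in muscle than in bone marrow (Ets2, Sox7, Sox17 and Foxc1) and 0 lower, and 11 fell in each injured group. Sox17, which acts in arteries, read 8.98 and 17.5 in bone marrow, 1069 and 388 in muscle, 28.3 and 8.90 in injured muscle, and 2.30 and 20.3 in transplanted injured muscle, a fall of -4.99 ± 0.81 and -5.71 ± 0.81 (limma adjusted p = 0.00514 and 0.00223). All 4 of these injured arrays were under the filter value, so each fall is at least 15.3-fold. Gata2 was present in bone marrow and muscle alike, at 444 and 469 and at 664 and 618, and fell by -3.41 ± 0.33 and -4.30 ± 0.33 in the injured groups (limma adjusted p = 0.00103 and 0.000355), the second at least 15.2-fold. Erg, a factor of endothelial identity, was below the filter value on all 8 arrays, at 2.55 to 8.13.

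Most of the capillary metabolism and transport genes were higher in muscle. There 9 of 14 were higher than in bone marrow and 0 lower, among them Cav1, the coat protein of caveolae (6.03 ± 0.50), Cd36, a fatty acid transporter (4.89 ± 0.36), and Lpl, lipoprotein lipase (3.77 ± 0.29), with limma adjusted p = 0.000491, 0.000286 and 0.000319. In each injured group 8 of 14 fell and 1 rose, a share of rises no larger than that over all genes. Ramp2, a partner of the adrenomedullin receptor, fell by -2.95 ± 0.37 and -3.64 ± 0.37 (limma adjusted p = 0.00212 and 0.000772). Lpl did not pass the test, with -0.10 ± 0.29 and 0.15 ± 0.29 (limma adjusted p = 0.825 and 0.702), and read 6546 and 4273 in muscle, 5297 and 4622 in injured muscle, and 6665 and 5194 in transplanted injured muscle. The gene that rose was Fabp5, a fatty acid carrier related to Fabp4 that macrophages also express, by 1.07 ± 0.25 and 1.66 ± 0.25 (limma adjusted p = 0.0178 and 0.00267). Lpl and Fabp5 were singled out after their values were seen.

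Of 5 genes of activated endothelium, Ackr1, Selp and Icam1 were higher in muscle than in bone marrow (3.33 ± 0.39, 2.86 ± 0.42 and 1.41 ± 0.25; limma adjusted p = 0.00214, 0.00585 and 0.0146); the Ackr1 difference is at least 8.50-fold. All 5 were lower in transplanted injured muscle than in muscle, and 2 (Ackr1 and Selp) in injured muscle. Vcam1, an adhesion molecule for leukocytes, read 813 and 473 in muscle, 497 and 511 in injured muscle, and 65.3 and 72.8 in transplanted injured muscle. Its difference between the injured groups, -2.80, was not called (limma adjusted p = 0.0607). Of the signalling list, 7 of 18 were higher in muscle than in bone marrow and 0 lower, with Thbd, the thrombin receptor thrombomodulin, at 2.48 ± 0.33 (limma adjusted p = 0.00370). In injured muscle 5 of 18 fell from muscle and 1 rose, and in transplanted injured muscle 11 fell and 0 rose. Ednrb went up with injury, with a mean of 141 in muscle and 347 in injured muscle. Notch4 and Egfl7, both made by endothelial cells, fell in transplanted injured muscle by -4.10 ± 0.57 and -4.28 ± 0.53 (limma adjusted p = 0.00210 and 0.00142), at least 2.80-fold and 7.68-fold. Lyve1, a hyaluronan receptor of lymphatic endothelium and of some macrophages, read 12.6 and 1.76 in bone marrow, 3149.9 and 2276 in muscle, 340.2 and 279.6 in injured muscle, and 86.8 and 69.0 in transplanted injured muscle. Pdpn, the other lymphatic gene tested, was higher in muscle than in bone marrow by 3.65 ± 0.32 (limma adjusted p = 0.000617), at least 9.43-fold. Unlike Lyve1, it was called higher in transplanted injured muscle than in muscle. In injured muscle against muscle 1 of the 2 was called lower and 0 higher. Prox1, which defines lymphatic endothelium, stayed at 1.26 to 28.0 and was not tested.

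Markers of other cells moved with these genes. The summed intensity of 13 pericyte and smooth muscle genes was 521 to 675 in bone marrow, 8001 to 8352 in muscle, 1331 to 1349 in injured muscle and 591 to 647 in transplanted injured muscle. Of the 10 tested, 7 were higher in muscle than in bone marrow and 6 and 8 fell in the injured groups; Rgs5, a pericyte marker, read 2190.1 and 2627 in muscle and 72.8 to 190.0 in the injured groups. The sum of 12 skeletal muscle fibre genes took the same course, at 299 to 366, 4434 to 7024, 1133 to 1154 and 289 to 328, with 8 of 12 higher in muscle and 9 and 12 lower in the injured groups. The part of pericytes and fibres in the differences of the 10 genes was not tested.

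The fibroblast list did not follow the endothelial genes in injured muscle. Its 14 genes summed to 2542 to 3057 in bone marrow, 15022 to 43738 in muscle, 30587 to 30641 in injured muscle and 7917 to 8964 in transplanted injured muscle. Between injured muscle and muscle 3 of 14 were called higher and 2 lower, with a median of -0.04, beside the median of -3.13 of the 10 endothelial genes. The other 2 comparisons with muscle had the same direction as the endothelial genes. In muscle against bone marrow 12 of 14 were called higher and 0 lower, with a median of 4.48 beside 3.89. In transplanted injured muscle against muscle 6 were called lower and 0 higher, with a median of -1.79 beside -3.35. The 14 monocyte and macrophage genes summed to 8459 to 10023 in bone marrow, 29667 to 44031 in muscle, 92237 to 97999.5 in injured muscle and 86772 to 90954 in transplanted injured muscle. In each injured group 10 of 14 were called higher than in muscle and 1 lower. In muscle 10 of 14 were called higher than in bone marrow and 0 lower. The list headed leukocyte surface had 8 genes, not all of them for surface proteins: Ptprc, Ptpn6, Coro1a, Cd53, Cd52, Laptm5, Itgb2 and Vav1. They summed to 23845 to 24949 in bone marrow, 19940 to 21664 in muscle and 32073 to 37550 in the injured groups. In muscle against bone marrow 0 of 8 were called higher and 1 lower, Ptpn6, by -1.80 ± 0.28 (limma adjusted p = 0.00757). Of 4 adipocyte genes tested, Pparg, which macrophages also express, was the 1 called higher in muscle than in bone marrow; Adipoq reached 38.7 on muscle 1 and stayed under 38.4 on the other arrays, and Cidec, Lep and Pck1 were under it on all 8. The shares of the cell types in the samples were not measured, and their part in the differences was not tested.

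**Figure D4:**
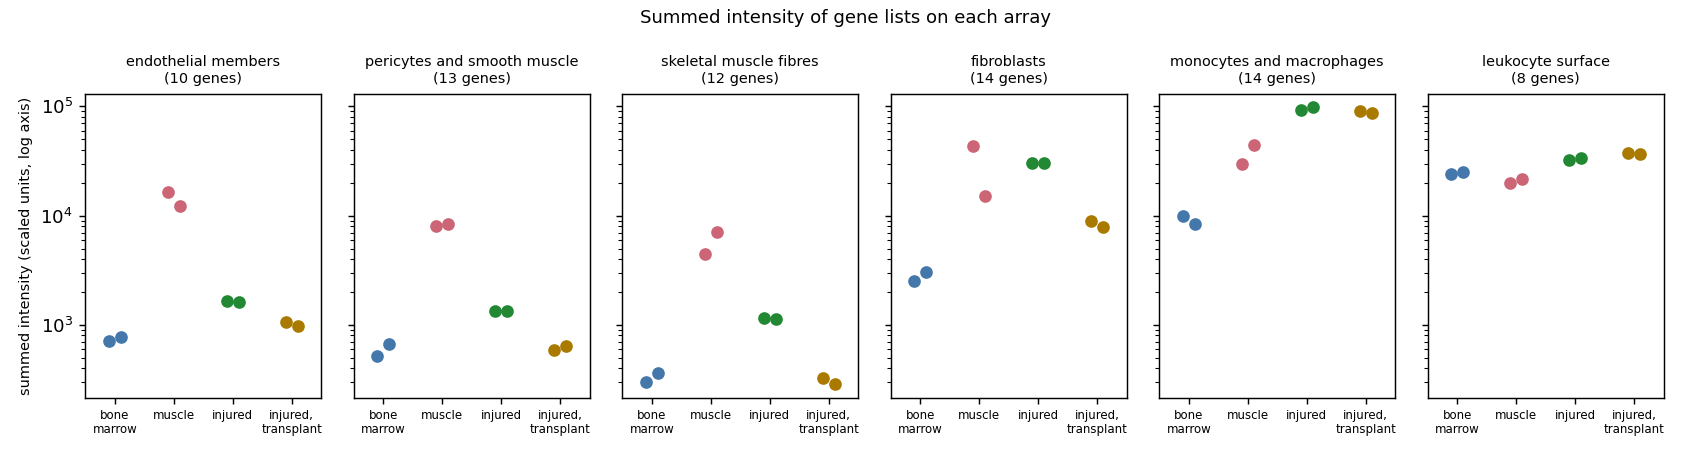
Summed intensity on a log axis of the 10 endothelial genes and of 5 lists of other cells on each of the 8 arrays, 2 points per group. Endothelial, pericyte and muscle fibre sums are highest on the muscle arrays, fibroblast sums of injured muscle (30587 to 30641) lie between those of the muscle arrays, and macrophage sums are highest in the injured groups.

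The 2 muscle arrays did not rank the genes in the same way. Kdr, Flt1, Tek, Emcn, Fabp4 and Tm4sf1 were higher on muscle 1, by 1.59-fold to 4.81-fold, while Pecam1, Cdh5, Vwf and Aqp1 were higher on muscle 2, with ratios of muscle 1 to muscle 2 of 0.485 to 0.856. Fibroblast genes were higher on muscle 1 in 13 of 14 cases, with a median log2 difference of 1.69. Macrophage genes were higher on muscle 2 in 11 of the 13 whose muscle mean was above the filter value. In the injured groups the 2 arrays of a group differed less for the genes well above the filter value: Fabp4 differed 1.20-fold and 1.06-fold and Tm4sf1 1.05-fold and 1.19-fold.

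Across the 8 arrays the log2 values of the 10 genes correlated with r from -0.557 to 0.991 over 45 pairs, with a median of 0.726. Without Pecam1 the 36 pairs ran from 0.179 to 0.991. These arrays share 4 groups, so a correlation mostly reflects the group means. Against the mean of the other members, r was 0.945 for Vwf, 0.943 for Aqp1, 0.925 for Emcn and 0.918 for Tek, and it was -0.333 for Pecam1, over 8 arrays. The genes outside the list closest to the mean pattern of the 10 were Ppp1r3c (r = 0.993), Ramp2 (0.991), Ptprb (0.990), Cavin2 (0.989), Tnnt3 (0.989), Gng11 (0.988), Retnla (0.987), Yap1 (0.986), Slco2a1 (0.984) and Cd209b (0.983), over 8 arrays. Ramp2, Ptprb and Cavin2, a caveolar protein, are genes of endothelial cells, Tnnt3 encodes a troponin of fast muscle fibres, and Retnla is a secreted protein of alternatively activated macrophages. Retnla read 103 and 115 in bone marrow, 10803 and 9529 in muscle, 344 and 306 in injured muscle, and 97.8 and 103 in transplanted injured muscle.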

How the data were processed

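RNA of 8 samples of CD45+/Sca1+ mouse cells was measured, 1 array each; the labelling started from 1 µg of RNA, per the labels. Each deposited column holds 1 intensity per probe set, scaled by the authors: the mean with 2% trimmed at each end is 250.09 to 250.12 on the 8 arrays. GCOS is named per the submitters' processing notes, without version; the sources used here do not state how probes were summarised.

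64 control probe sets were left out. Of the others, 20380 had 1 gene, 691 several and 1555 none in the annotation used. Values under 1 were set to 1, 4 was added (the 10th percentile) and log2 taken. The fit, in limma 3.58.1 (R 4.3.3), took probe sets that reached 38.4 (the 40th percentile) on 2 or more of 8 arrays. It had a mean for every group over 8 arrays, an intensity trend, two-sided tests and Benjamini-Hochberg adjustment over 16285 probe sets per comparison. The probe set with the highest mean stands for a gene. Residual degrees of freedom were 4, and the median SE of a difference was 0.45: the number of arrays limits precision. The limma step alone was tried on simulated data with independent normal noise, for muscle against bone marrow. The scaling, the pseudocount, the filter and the other comparisons were not tried in this way.

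Named are all 10 genes, up to 4 genes per further list with the smallest p in a comparison, and the 10 genes with the closest pattern; Ptprc and the markers given only by level were named besides. Members, lists and tests were chosen with earlier results of these data known. Alternatives were quantile normalization, median centring, other pseudocounts and filters, no trend, array weights, a replicate block, fewer arrays, other probe sets and each array left out.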

Additional observations from a re-analysis of the deposited data

How the results depend on the processing

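Of 60 differences (10 genes in 6 comparisons), 35 were called, and 20 of these calls held in all 19 settings. No called difference changed sign in them. A group left with 1 array was assumed to vary like the others, and fewer arrays give wider errors; the cause of the other changes was not tested. Muscle against bone marrow had 8 genes higher, 4 in a fit of the 4 arrays compared alone, and 4 to 8 with 1 array left out. Injured muscle against muscle had 9 lower (5 to 9 with 1 array left out), and transplanted injured muscle against muscle 9 lower (7 to 9). Transplanted injured against injured muscle had 0 higher and 0 lower; array weights, and a fit of the 4 arrays alone, each gave 1 higher and 2 lower, a pseudocount at the 25th percentile (17) gave 1 lower, and leaving out 1 array gave 0 to 1 lower. Injured muscle against bone marrow had 4 higher (2 to 4 with 1 array left out) and 2 lower (1 to 2, and 1 when a gene's probe sets were averaged). Transplanted injured muscle against bone marrow had 2 higher (2 to 4 with 1 array left out, and 1 when probe sets were averaged) and 1 lower, with 0 to 2 lower when 1 array was left out, 0 with quantile normalization, median centring, no filter or averaged probe sets, and 2 with array weights or the 4 arrays alone. Read from the dimmer Fabp4 probe set 1424155_at in place of the brightest, the Fabp4 difference from bone marrow turned to -0.60 in injured and -0.92 in transplanted injured muscle (limma adjusted p = 0.514 and 0.307). Emcn in muscle against bone marrow was called in 5 of 19 settings and Flt1 in transplanted injured muscle against muscle in 9 of 19. Median centring moved the median log2 difference of all probe sets from -0.03 to -0.21 in muscle against bone marrow and from -0.19 to 0.09 in transplanted injured muscle against muscle. It moved the probe sets called higher and lower from 1973 and 2262 to 2295 and 1762 in injured muscle against muscle, and from 2268 and 3015 to 3011 and 2096 in transplanted injured muscle against muscle, while 9 and 8 of the 10 genes were lower. The 60th percentile filter left out Pecam1 and gave no value for it.

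The labels number the arrays of each group 1 and 2. Deviations of arrays with the same number correlated at 0.313 between bone marrow and muscle. In the other 5 pairs of groups r was -0.032 to 0.003. Whether the numbers mark paired samples cannot be told from these correlations, since the labels do not say what the numbers stand for. With the replicate number as a block, 7 genes were higher in muscle than in bone marrow, since Emcn was lost (limma adjusted p = 0.0549), and no other call of the 10 genes changed.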
